A study of Mus musculus with 8 samples.

Results

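Complement is a set of secreted and membrane proteins that mark microbes and damaged cells, call in leukocytes and open membranes. The classical route starts when C1q binds antibody or damaged surfaces and switches on the proteases C1r and C1s, which cut C4 and C2. The alternative route runs through C3, factor B and factor D. Both meet at the cleavage of C3, whose fragments coat targets and act on leukocytes through their own receptors. The liver makes most complement of the blood, while fibroblasts, fat cells, epithelial cells and macrophages make several components locally.

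The 9 complement genes described here are the classical components C1ra, C1s1, C4b and C2, the central component C3, the alternative pathway protease Cfb, the regulator Cfi and the receptors C3ar1 and C5ar1. They were found by symbol among 49315 gene identifiers, and 8 of them were among the 17179 genes with enough counts to be tested. RNA came from esophagus of wild-type mice (WT in the labels), described as whole-organ homogenate in one protocol field and as frozen cell pellets in another. There were 3 libraries of mice given 0.5% sodium dodecyl sulfate (SDS, a household detergent) in drinking water for 14 days and 5 libraries of untreated mice taken on the same day. The labels do not give age, sex or strain, and nothing in them ties a library to its own mouse. The p-values therefore reflect variation among these libraries, which may be technical. The comparison asks what the detergent did to the tissue.

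Total counts per library lay between 22033866 and 29802362. A list of 10 basal and suprabasal keratinocyte genes, the markers of the esophageal lining, summed to 91300 to 153000 CPM (counts scaled to a common library size) in SDS libraries and 42300 to 139000 CPM in controls. SDS library 3 stood apart from SDS libraries 1 and 2, and the labels give no measure by which its treatment could be checked. In SDS libraries 1, 2 and 3 the mean of 10 wound and stress keratinocyte genes exceeded its control mean by 7.63, 7.46 and 1.79 log2 units. For 12 macrophage genes these values were 0.96, 1.97 and -0.31. Control library 4 was rich in adipocyte RNA, with the mean of 11 adipocyte genes 3.18 above the control mean, and control library 3 was poor in it, at -3.06. In RNA of a whole organ, fewer cells of a type and less RNA per cell cannot be told apart.

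All 9 genes are protein-coding and are counted over their exons on mm10, with the same spans in GENCODE M21. C2 (ENSMUSG00000024371), Cfb (ENSMUSG00000090231), C4b (ENSMUSG00000073418) and C3 (ENSMUSG00000024164) lie on the minus strand of chromosome 17, C2 from 34862604 to 34898265, Cfb from 34856374 to 34862518, C4b from 34728380 to 34743882 and C3 from 57203970 to 57228136. C1ra (ENSMUSG00000055172) and C1s1 (ENSMUSG00000038521) are neighbours on chromosome 6, from 124512405 to 124523443 and from 124530345 to 124542359. C3ar1 (ENSMUSG00000040552) is on the same chromosome from 122847138 to 122856161. Cfi (ENSMUSG00000058952) lies on chromosome 3 from 129835884 to 129875332, and C5ar1 (ENSMUSG00000049130) on chromosome 7 from 16246743 to 16259540.

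Several of these genes share exon bases or transcript sequence with other genes. A readthrough gene model, Gm20547, shares 79.5% of the exon bases of Cfb and 42.8% of those of C2 on the same strand, and it was listed at 0 counts in all 8 libraries. Of its own exon bases, 42.4% are shared with C2 and 57.6% with Cfb, so reads in shared bases were not credited to Gm20547. How the authors treated reads that fit 2 genes is not given in the sources used here. The counts of Cfb and C2 may lack such reads, which was not tested. Cfb has 579 exon bases outside Gm20547 and C2 has 2216. The opposite-strand gene Zbtb12 also shares 161 exon bases with C2, and Gm16567, on the strand opposite to C1s1, shares 576 exon bases with it and had 0 counts. Close copies matter as well. Of the 75-base stretches of the C4b transcripts 22.7% also occur in C4a, of C1ra 40.1% occur in C1rb, and of C1s1 13.0% occur in C1s2. With Gm18840 included, 42.4% of the C1ra stretches occur in another gene. The copies held few counts: C4a held 42, 27 and 17 in SDS libraries 1, 2 and 3 and 16 to 28 in controls, and C1rb had at most 10 and C1s2 at most 24 in any library. Reads that match both copies may be missing from the counts of C4b, C1ra and C1s1 too, which was not tested. C3, Cfi, C3ar1 and C5ar1 shared no such stretch with another gene.

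For the members whose levels in SDS libraries 1 and 2 lay above every control, the bases before the RefSeq start of C3, C1s1 and C3ar1 are shown, since these 3 starts lie at or within a few bases of the start of the counted gene. RefSeq windows were at hand for 5 of the 9 members (C3, C1ra, C1s1, C3ar1 and C5ar1, GRCm38.p6). Each runs 5′ to 3′ on the gene's strand over 250 bases and ends just before the start; of 2 starts of C1s1, the outer is shown. Capitals mark matches, on either strand, to 6 motifs searched: GGGNNNTTCC for NF-kappaB, TTCNNNGAA for STAT, GAAANNGAAA for the interferon-stimulated response element, TGANTCA for AP-1, TTGCNNAA for C/EBP and GAGGAA for PU.1.
C3, chr17:57228137-57228386, minus strand: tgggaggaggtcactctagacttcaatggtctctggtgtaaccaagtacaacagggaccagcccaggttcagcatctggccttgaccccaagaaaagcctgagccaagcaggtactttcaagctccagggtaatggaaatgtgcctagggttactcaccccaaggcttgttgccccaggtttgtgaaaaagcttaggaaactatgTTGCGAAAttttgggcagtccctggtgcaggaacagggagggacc
C1s1, chr6:124542360-124542609, minus strand: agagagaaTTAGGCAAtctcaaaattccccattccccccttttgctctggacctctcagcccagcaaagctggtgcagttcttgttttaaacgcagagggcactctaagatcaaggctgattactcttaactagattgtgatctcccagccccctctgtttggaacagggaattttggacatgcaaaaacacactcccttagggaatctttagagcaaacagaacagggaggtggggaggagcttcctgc
C3ar1, chr6:122856158-122856407, minus strand: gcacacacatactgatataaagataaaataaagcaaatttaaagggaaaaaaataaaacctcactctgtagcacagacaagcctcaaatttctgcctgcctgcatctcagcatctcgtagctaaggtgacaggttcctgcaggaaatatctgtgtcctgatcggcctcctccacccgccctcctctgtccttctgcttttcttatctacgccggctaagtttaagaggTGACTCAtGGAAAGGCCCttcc

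The C/EBP letters stood at position -45 from the start of C3 as TTGCGAAA and at position -242 from that of C1s1, on the opposite strand, as TTAGGCAA, and 9.57% of 32817 promoter windows of this length held a match. C3ar1 held the AP-1 letters at position -22 (they read the same on both strands), a match found in 6.75% of windows, and the NF-kappaB letters at position -14 on the opposite strand, found in 4.65%. No match to any of the 6 motifs lay in the windows of C1ra and C5ar1. Those windows lie mostly within the counted genes. The window of C1ra runs from 124512371 to 124512620, and the counted gene starts at 124512405. The window of C5ar1, a minus-strand gene that ends at 16259540, runs from 16259339 to 16259588. The bases before the start of these counted genes were thus mostly not searched. Shares of all windows for the other motifs were 7.01% for STAT, 2.97% for the interferon-stimulated response element and 23.3% for PU.1. A match describes the letters in a window and is not a site. No 2 of the matches overlap.

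Per kilobase of exon, C3 was the most abundant of the 9 genes in untreated esophagus. It averaged 190 ± 142 CPM per kilobase in SDS libraries (SD, n = 3) and 87.8 ± 46.6 in controls (SD, n = 5). C1s1 came next with 45.8 ± 26.4 CPM per kilobase in SDS libraries and 29.8 ± 4.84 in controls. C4b stood at 26.5 ± 20.2 and 10.7 ± 4.92 CPM per kilobase in SDS libraries and controls, and C1ra at 18.2 ± 11.9 and 10.7 ± 2.9. The order from C3 to C1s1 and from C1s1 to C4b held in all 8 libraries, whereas C4b was above C1ra in 2 of 3 SDS libraries and 3 of 5 controls. C2, C5ar1, C3ar1 and Cfb formed a lower tier whose control ranges overlapped, with control means between 1.12 and 2.00 CPM per kilobase. The same counts were also divided by only the exon bases outside Gm20547. Cfb then stood at 20.3 ± 19.4 CPM per kilobase in SDS libraries and 5.46 ± 4.88 in controls. C2 stood at 2.44 ± 0.92 in SDS libraries and 3.50 ± 3.38 in controls. These values assume that every counted read came from those bases. The place of Cfb in the order therefore depends on the length used. Cfi was lowest, at 0.089 ± 0.094 CPM per kilobase in SDS libraries and 0.054 ± 0.042 in controls.

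**Figure D1:**
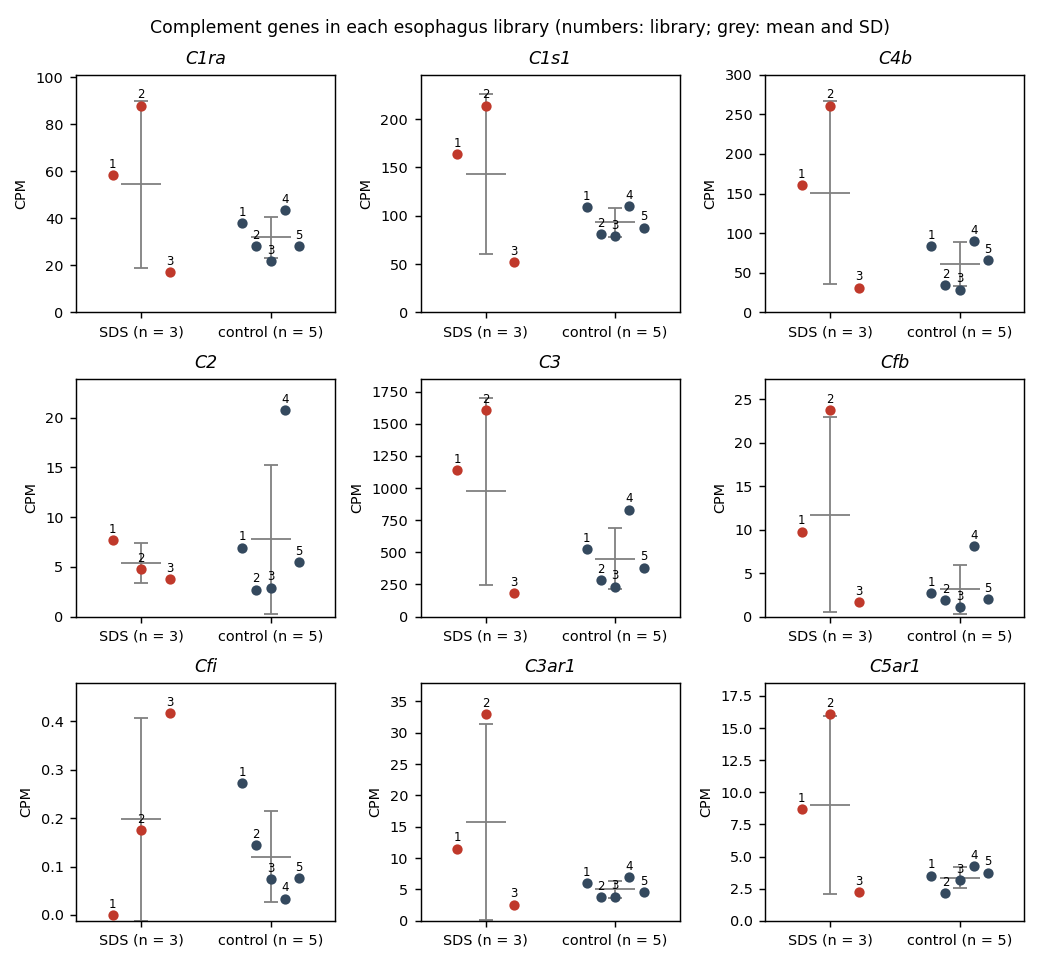
CPM of the 9 complement genes (vertical axes, linear) in each SDS library, left, and each control library, right, with the library number above each point and the group mean and SD in grey. For 7 of the 9 genes SDS libraries 1 and 2 lie above all 5 controls while SDS library 3 does not, and C2 peaks in control library 4 at 20.8 CPM.

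The initiating proteases C1ra and C1s1 had more RNA in SDS libraries 1 and 2 than in any control, and less in SDS library 3. C1r cuts and activates C1s inside the C1 complex. C1ra measured 58.2, 87.9 and 17.0 CPM in SDS libraries 1, 2 and 3, against 38.0, 28.0, 21.8, 43.4 and 28.3 CPM in control libraries 1 to 5. The groups overlapped because SDS library 3 lay below the lowest control. The log2 fold change was 0.77 ± 0.44 (SE) and the adjusted p 0.395 (edgeR quasi-likelihood, Benjamini-Hochberg over all tested genes). C1s1, which cleaves C4 and C2, measured 164, 214 and 52.3 CPM with SDS, against 109, 80.6, 79.0, 110 and 87.8 CPM in the controls. Its pattern was the same, with a log2 fold change of 0.62 ± 0.37 (SE; edgeR adjusted p = 0.422). The C1s1 to C1ra ratio of counts was 2.81, 2.43 and 3.07 in the SDS libraries and 2.53 to 3.63 in controls.

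C4b, whose large fragment binds covalently to the surface under attack, measured 161, 261 and 31.2 CPM with SDS. The 5 controls measured 84.1, 34.4, 28.8, 89.9 and 66.1 CPM. SDS libraries 1 and 2 were above every control, and SDS library 3 lay among the lowest controls. The log2 fold change was 1.31 ± 0.61 (SE; edgeR adjusted p = 0.293). C3, the hub of the system, measured 1140, 1610 and 182 CPM with SDS and 523, 286, 234, 832 and 381 CPM in the controls. Here SDS library 3 lay below every control, and control library 4 was the highest of the controls. C3 had a log2 fold change of 1.12 ± 0.63 (SE; edgeR adjusted p = 0.387). The ratio of C3 to C4b counts was 7.09, 6.18 and 5.85 in the SDS libraries and 5.77 to 9.26 in the controls.

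Cfb and C2 encode the related proteases that cut C3 in the alternative and the classical route, and their genes adjoin each other. Cfb measured 9.78, 23.8 and 1.63 CPM with SDS, against 2.70, 1.88, 1.11, 8.11 and 2.02 CPM in the controls. SDS libraries 1 and 2 exceeded every control, although SDS library 1 did so only narrowly over control library 4. The log2 fold change of 1.89 ± 0.81 (SE) was the largest of the tested members (edgeR adjusted p = 0.262). C2 did not follow it. It measured 7.70, 4.74 and 3.80 CPM with SDS and 6.93, 2.70, 2.92, 20.8 and 5.45 CPM in the controls, and its highest value belonged to control library 4. Its log2 fold change was -0.52 ± 0.67 (SE; edgeR adjusted p = 0.734), and 0.27 without control library 4. C2 had 0.787, 0.199 and 2.33 counts for each Cfb count in SDS libraries 1, 2 and 3, against 2.57, 1.44, 2.63, 2.56 and 2.70 in control libraries 1 to 5. This ratio was thus below every control in SDS libraries 1 and 2 and within the control range in SDS library 3. It was chosen after the values were seen and was not tested. Both of its counts may lack reads in the bases shared with Gm20547.

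**Figure D2:**
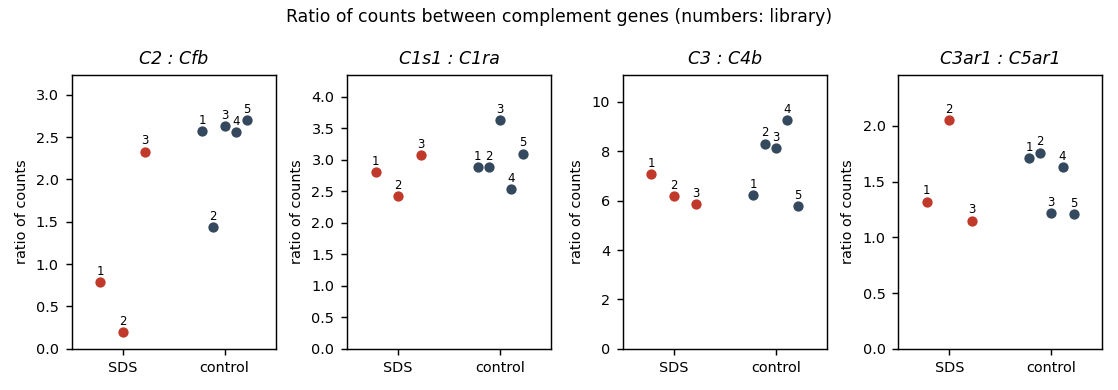
Ratio of counts (vertical axes, linear) between pairs of complement genes in each SDS library, left, and each control, right, with library numbers beside the points. The ratio of C2 to Cfb is 0.787 and 0.199 in SDS libraries 1 and 2 and at least 1.44 elsewhere, while the group ranges of the other 3 ratios overlap.

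Receptors for the small fragments of C3 and C5 had more RNA in SDS libraries 1 and 2 than in any control. C3ar1, the receptor of C3a on myeloid cells, measured 11.5, 33.0 and 2.59 CPM with SDS, against 6.01, 3.80, 3.84, 6.93 and 4.54 CPM in the controls. SDS library 3 was again below the lowest control. The log2 fold change was 1.64 ± 0.62 (SE; edgeR adjusted p = 0.204). C5ar1, the C5a receptor that draws in neutrophils and macrophages, measured 8.72, 16.1 and 2.25 CPM with SDS and 3.52, 2.17, 3.14, 4.26 and 3.74 CPM in the controls. SDS library 3 stood within the control range. The log2 fold change was 1.42 ± 0.50 (SE; edgeR adjusted p = 0.179).

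Cfi, the protease that inactivates C3b and C4b, was nearly absent. SDS libraries 1, 2 and 3 held 0, 5 and 10 Cfi counts and control libraries 1 to 5 held 8, 3, 2, 1 and 2, too few for the filter. With no filter its log2 fold change was 0.70 and its edgeR adjusted p was 0.733. At these depths 3 counts equal 0.101 to 0.144 CPM, so a small difference in Cfi could not be detected with so few reads. The size of difference that could be detected was not computed. The floor of 3 counts allows for counting error alone. The libraries with the most Cfi counts, SDS library 3 and control library 1, also held the most RNA of the hepatocyte list, whose 7 matched genes summed to 54.5 and 34.4 CPM there and to at most 10.2 CPM elsewhere. The part of that RNA in the Cfi counts was not tested.

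By edgeR's quasi-likelihood test none of the 8 tested members passed the 0.05 threshold after adjustment, while 0.623% of all tested genes were called higher and 1.05% in either direction. At an unadjusted p under 0.05 there were 3 members, Cfb, C3ar1 and C5ar1, beside 3180 of the 17179 genes. DESeq2 and limma-voom also called 0 of the 8. Log2 fold changes were positive for 7 of the 8, with a median of 1.21 against -0.005 over all tested genes. In SDS library 1 and in SDS library 2, 7 of 8 members lay above every control, as did 19.7% and 24.5% of all tested genes. In SDS library 3 none lay above every control and 4 lay below every control, C1ra, C1s1, C3 and C3ar1, beside 28.4% of all tested genes. The ranges of the 2 groups did not overlap for 0 of 8 members, where 6.49% of all tested genes lay wholly higher in SDS and 6.89% wholly lower.

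Single SDS libraries decided these results. Without SDS library 3, which leaves 2 SDS libraries, 4 of 8 members passed, all higher, while 4.98% of all genes tested in that fit did. They were C5ar1 (log2 1.89, edgeR adjusted p = 0.0121), C1s1 (1.03, 0.0176), C3ar1 (2.16, 0.0196) and C1ra (1.21, 0.0377). C4b (1.81, 0.0507), C3 (1.62, 0.0726) and Cfb (2.41, 0.0779) did not pass there. Leaving out any other library gave 0 of 8. Without SDS library 2 the fold changes of these 7 members were smaller, at 0.24 for C1ra, 0.55 for C3 and 0.85 for Cfb on the log2 scale. Limma-voom with sample quality weights, which gave SDS library 3 the lowest weight of the 8 libraries, 0.25, called 4 of 8 members higher (C1s1, C3, C5ar1 and Cfb), beside 6.58% of all tested genes.

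Values of other cells moved with these genes. No member is in the marker lists. The macrophage list holds C1qa, C1qb and C1qc, and the neutrophil list Itgam, which also belong to the wider complement list. Macrophage genes lay 0.96, 1.97 and -0.31 log2 units from their control mean with SDS (libraries 1, 2 and 3) and between -0.39 and 0.35 in the controls, and none of the 12 was at 0. Relative to that list, C3ar1 lay at 0.26, 0.77 and -0.58 in the SDS libraries and at -0.25 to 0.15 in the controls, and C5ar1 at 0.43, 0.30 and -0.22 against -0.20 to 0.26. On the same scale C1ra lay at -0.05, -0.47 and -0.55 in SDS libraries 1, 2 and 3 and at -0.28 to 0.24 in the controls, and C1s1 at -0.14, -0.76 and -0.50 against -0.22 to 0.19. Both were thus below every control in SDS libraries 2 and 3. The list value of 1.97 in SDS library 2 lowers every gene on this scale there, while -0.31 in SDS library 3 raises every gene. The share of all tested genes below every control on this scale was not computed. The fibroblast list lay at 0.05, 0.82 and -1.32 in the SDS libraries and at -0.10 to 0.23 in the controls, with 3100, 7020 and 1410 CPM summed against 2630 to 3480. Genes of this list did not move alike. The collagen gene Col1a1 measured 191, 833 and 32.8 CPM in SDS libraries 1, 2 and 3 and 153 to 219 CPM in the controls, and Col3a1 952, 3170 and 153 CPM against 649 to 1040 CPM. The proteoglycan gene Dcn stood closer to its controls, at 699, 805 and 562 CPM with SDS and 581 to 716 CPM in the controls, as did Dpt, at 331, 360 and 312 CPM against 314 to 429 CPM. The low list value of SDS library 3 therefore came more from genes such as the collagens than from Dcn or Dpt, and it raises every member on the scale relative to this list. Relative to the fibroblast list, 4 of 8 members were above every control in all 3 SDS libraries, as were 4.51% of all tested genes. They were C1ra (0.86, 0.69 and 0.46 in SDS libraries 1, 2 and 3, at most 0.29 in a control), C1s1 (0.78, 0.39 and 0.50, at most 0.24), C3ar1 and C5ar1. Relative to the neutrophil list the SDS means of the same 4 were all below 0, at -0.95 for C1ra, -1.06 for C1s1, -0.44 for C3ar1 and -0.42 for C5ar1. The sign of the SDS mean thus depended on the list chosen. On that scale C1ra lay at -1.19, -0.70 and -0.96 in SDS libraries 1, 2 and 3, and its lowest control at -0.43. C1s1 lay at -1.27, -0.99 and -0.91, and its lowest control at -0.48. These 2 genes were thus below every control in all 3 SDS libraries. The share of all tested genes that were so was not computed. The receptors overlapped the controls relative to the neutrophil list. C5ar1 lay at -0.711, 0.0668 and -0.625 in SDS libraries 1, 2 and 3 against -0.871 to 0.515, and C3ar1 at 0.537 in SDS library 2 against at most 0.602. The fibroblast scale was chosen after the values were seen. The part of these cells in the member levels was not tested.

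**Figure D3:**
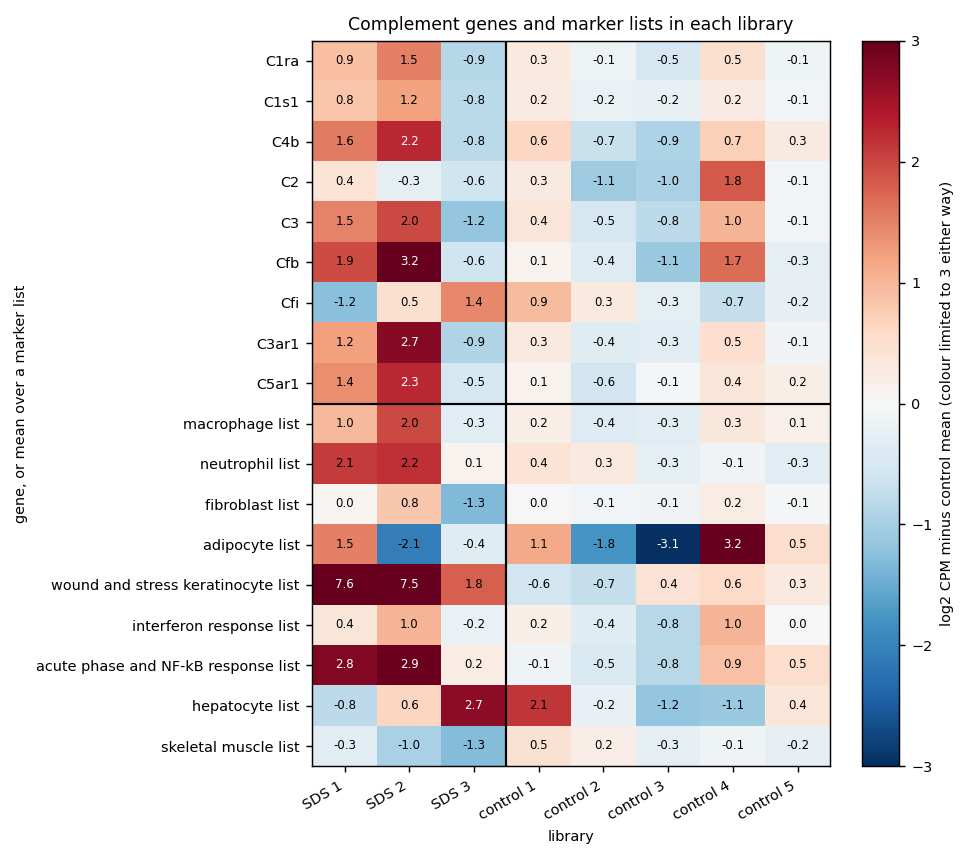
Log2 CPM of the 9 complement genes (upper rows) and mean log2 CPM of 9 marker lists (lower rows), each minus its control mean, in the 3 SDS libraries, left, and the 5 controls, right. SDS libraries 1 and 2 are red for C1ra, C1s1, C4b, C3, Cfb, C3ar1 and C5ar1 and for the macrophage, neutrophil and acute phase lists, and SDS library 3 is blue for the same 7 genes.

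Acute phase and NF-kappaB genes, a list that holds Saa3 and Il1b, lay at 2.78, 2.94 and 0.21 in the SDS libraries and between -0.83 and 0.88 in the controls. Its genes did not move alike. Log2 fold changes were 6.96 for Saa3, 5.08 for Lcn2 and 3.1 for Il1b. They were 0.04 for Cxcl1, 0.09 for Socs3 and -0.22 for Hp. Of the 10 tested genes of the list, edgeR called 2 higher, Saa3 and Lcn2, beside 0.623% of all tested genes. Interferon response genes lay at 0.37, 1.01 and -0.21 in the SDS libraries and at -0.82 to 1.03 in the controls, with control library 4 the highest of all 8. Neutrophil genes lay at 2.1, 2.2 and 0.10 in the SDS libraries and at -0.33 to 0.41 in the controls, but 4 of their 10 genes had enough counts to be tested. Ly6g, a defining neutrophil marker, measured 0.0393, 0.105 and 0 CPM with SDS and 0 in all controls, and was thus near absent in both groups.

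Fat content separated the controls. Adipocyte genes lay at 1.5, -2.08 and -0.37 in SDS libraries 1, 2 and 3 and at 1.13, -1.78, -3.06, 3.18 and 0.54 in control libraries 1 to 5, and none of the 11 was at 0. Cfd, the adipocyte protease adipsin that cuts factor B, measured 560, 29.5 and 112 CPM with SDS and 445, 42.4, 5.50, 1740 and 313 CPM in the controls, the order of the adipocyte list. C2 was highest in control library 4 and lowest in control libraries 2 and 3, where the list was also low. SDS libraries 2 and 3 did not keep this order, with 4.74 and 3.80 CPM of C2 at list values of -2.08 and -0.37. With the adipocyte mean as a covariate, the log2 fold change was -0.01 for C2, 0.10 for Cfd, 1.38 for C3 and 2.37 for Cfb, and none of the 8 members passed (smallest edgeR adjusted p = 0.179).

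**Figure D4:**
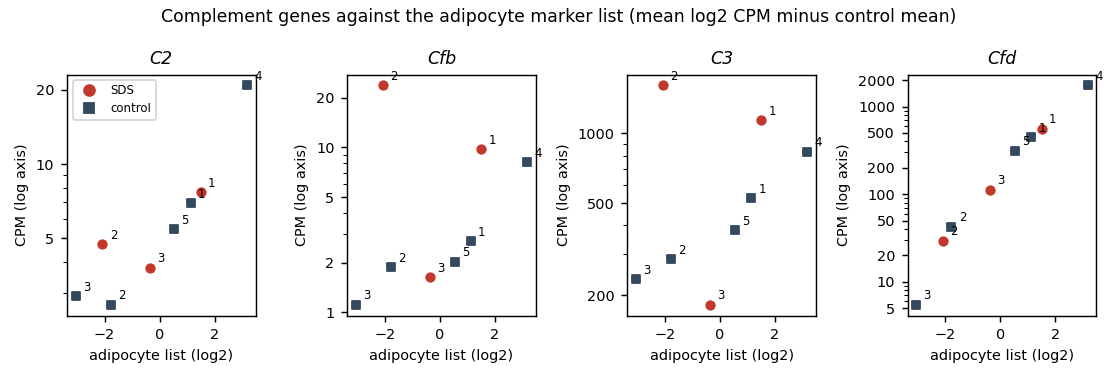
CPM (vertical axes, log scale) of C2, Cfb, C3 and Cfd against the mean log2 CPM of the adipocyte list minus its control mean (horizontal axes), with SDS libraries as circles and controls as squares, numbered. Cfd follows the list over all 8 libraries, while SDS library 2 reaches 23.8 CPM of Cfb and 1610 CPM of C3 at a low adipocyte value of -2.08.

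Across the wider system, 57 complement genes were listed by role and 39 had enough counts. None of the 39 passed the edgeR test in either direction, 17 had an unadjusted p under 0.05 beside 3180 of all 17179 genes, and limma-voom called 0. DESeq2 called 5, all higher (Itgam, Itgax, Itgb2, Vsig4 and C1qb), beside 5.00% of all genes. Without SDS library 3 the edgeR test called 11 of 39, all higher, beside 4.98% of all genes tested in that fit: the members C1ra, C1s1, C3ar1 and C5ar1, the subunits C1qa, C1qb and C1qc, and the receptors Itgam, Itgax, Itgb2 and Vsig4. Log2 fold changes were positive for 26 of 39 with a median of 0.42, and for 19 of the 31 that are not members with a median of 0.20.

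By role, fold changes are given as counts and medians, with no test between roles; over all tested genes 8470 of 17179 were positive. All 8 tested receptors had positive fold changes, with a median of 1.61. Itgb2, the beta chain of complement receptors 3 and 4 and the receptor with the highest mean TPM over the 8 libraries, measured 33.2, 77.0 and 14.0 CPM with SDS and at most 17.7 CPM in the controls (log2 1.59, edgeR adjusted p = 0.115). In the classical and lectin group 9 of 13 were positive, with a median of 0.62. C1qa, a chain of C1q made by macrophages, measured 83.3, 173 and 47.1 CPM with SDS and 37.1 to 61.4 CPM in the controls (log2 1.07, edgeR adjusted p = 0.167).

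Membrane regulators, which shield host cells, had 1 positive fold change among 6, and their median was -0.39. Cd59a, which blocks the membrane pore, had the highest mean level among them in TPM (counts per exon length, scaled to one total) over the 8 libraries. Its mean was 19.3 TPM with SDS and 28.8 TPM in controls, while Cd55, next in order, averaged 22.3 TPM with SDS and 25.6 TPM in controls and so was the higher of the 2 with SDS. Cd59a measured 20.0, 10.6 and 12.4 CPM in SDS libraries 1 to 3 and 11.9 to 35.3 CPM in the controls (log2 -0.52, edgeR adjusted p = 0.491). Its paralog Cd59b measured 1.06, 0.703 and 0.918 CPM with SDS, below all controls at 1.22 to 2.30 CPM (log2 -0.91, edgeR adjusted p = 0.153). Over all tested genes, 6.89% lay wholly lower in SDS. Soluble regulators were positive in 4 of 5, with a median of 0.20. Serping1, the C1 inhibitor, measured 157, 215 and 94.2 CPM with SDS and 109 to 151 CPM in the controls (log2 0.21, edgeR adjusted p = 0.689).

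Of the 7 terminal pathway genes only C6, C7 and C8g had enough counts. C7, an early component of the membrane attack complex, measured 44.7, 20.4 and 18.1 CPM with SDS and 18.8 to 81.6 CPM in the controls (log2 -0.68, edgeR adjusted p = 0.541). C6 measured 0.472, 1.16 and 0.501 CPM with SDS, above all controls at 0.0739 to 0.375 CPM (log2 1.83, edgeR adjusted p = 0.139). These rest on few counts, 12, 33 and 12 with SDS and 2 to 11 in the controls. Hc, which encodes C5, had 1, 5 and 7 counts with SDS and at most 7 in a control. Of other roles, Clu and Itgam were also above all controls in every SDS library. Over all tested genes, 6.49% lay wholly higher in SDS. The genes Cd59b, C6, Hc and Clu were named after their values were seen.

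**Figure D5:**
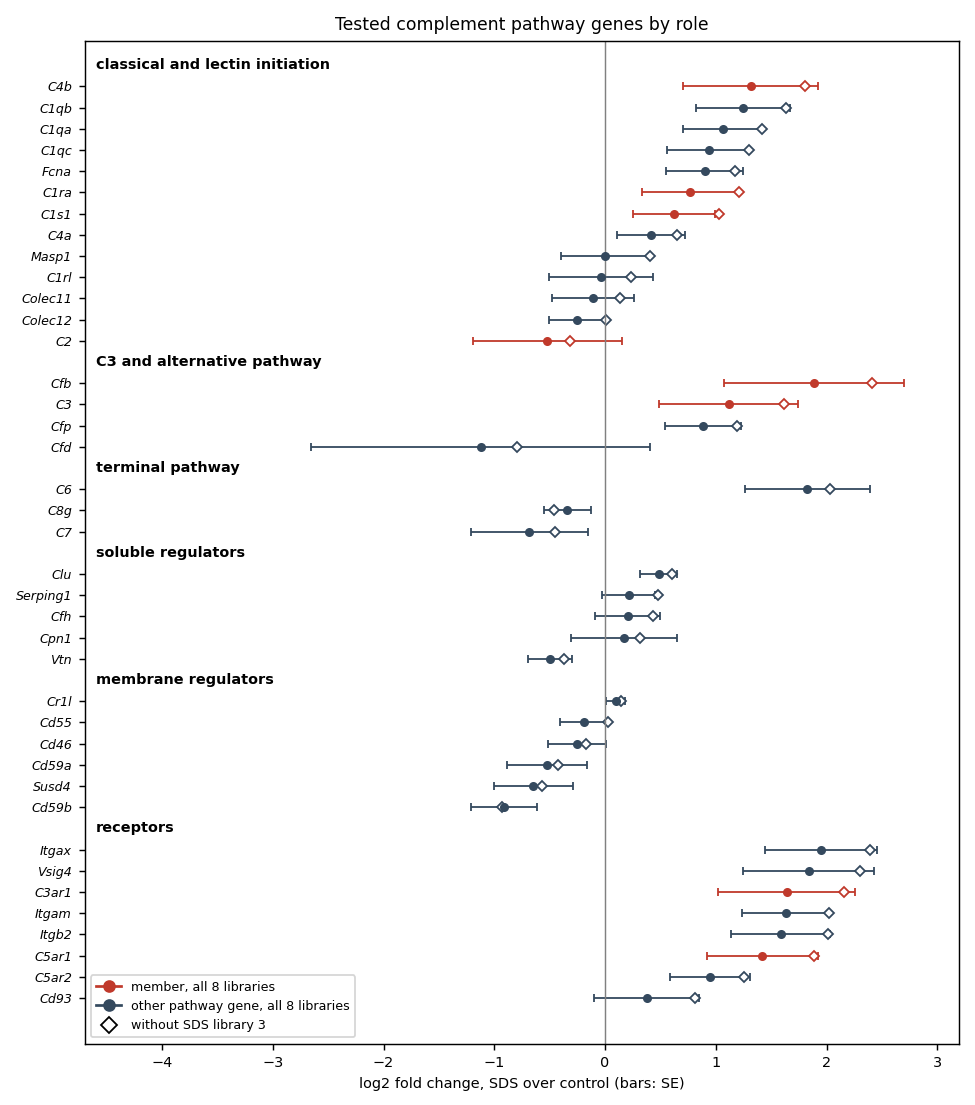
Log2 fold change of SDS over control (horizontal axis) with its SE for the 39 tested complement genes, grouped by role, in red for the members and in dark blue for the others, with open diamonds for the fit without SDS library 3. All 8 receptors lie right of 0, and 5 of 6 membrane regulators lie left of it.

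For each tested member the nearest profiles among non-members were sought by the mean absolute difference of log2 CPM over the 8 libraries, each gene centred on its control mean. C3 was nearest to Clec9a (0.145 log2 units) and Lgals3bp (0.191), C4b to Padi2 (0.132) and Rinl (0.223), and Cfb to Siglec1 (0.182) and Cd300c2 (0.301). C2 was nearest to Dgat1 (0.0746) and Mgll (0.0895). C1ra was nearest to Cpne2 (0.0936) and Pik3cd (0.120), and C1s1 to Cpne2 (0.0900) and Fam20a (0.0913). C3ar1 was nearest to Fmnl1 and Tnfrsf1b (0.155 each), and C5ar1 to Laptm5 (0.0911) and Gm49339 (0.120). Among 17178 other genes, C4b ranked 6 for C3, C3 ranked 7 for C4b, C1s1 ranked 7 for C1ra and C1ra ranked 8 for C1s1. The nearest member to C2 was C1s1, at rank 5509. With 8 libraries in which many genes share the contrast of SDS libraries 1 and 2 with the rest, such likeness is a description.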

How the data were processed

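Each library came with its own deposited table of raw counts, covering 49315 Ensembl identifiers, of which 48970 had a symbol in the name table. Per the labels' protocols, RNA was poly(A)-selected and libraries were made with the NEBNext Ultra II kit. The submitters' processing notes name mm10, STAR 2.6.1c, Subread, FastQC and bcl2fastq. Not given in the sources used here: annotation release, strand setting, and how multiply matching reads were handled.

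Tests used edgeR 4.0.16 in R 4.3.3 (filterByExpr with minimum count 10 and minimum total 15, TMM scaling, robust glmQLFit and glmQLFTest with group as the term, two-sided, Benjamini-Hochberg over all tested genes, threshold 0.05). DESeq2 1.42.0 and limma 3.58.1 were alternatives, beside other scalings and filters, an adipocyte covariate, the replicate number as a block and leaving out each library. CPM use TMM-scaled library sizes, and log2 CPM a prior count of 2. Standard errors were derived from the log2 fold change and the F statistic (absolute value over root F). The procedure was tested on simulated data. No libraries of a group were copies (smallest chi-square per degree of freedom 24.1).

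Members and lists were chosen with earlier results of these data known. Named genes were the members, called pathway genes, the tested gene of highest mean TPM in each role (computed here from the deposited counts), the 2 nearest profiles of each member, and genes overlapping or copying a member.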

Additional observations from a re-analysis of the deposited data

Results flagged for a closer look

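Among the 5 controls, control library 4 lay far above the others for 3 of 14 genes examined: C2 at 20.8 CPM with the next control at 6.93 CPM, Cfb at 8.11 CPM with the next at 2.70 CPM, and Cfd at 1740 CPM with the next at 445 CPM. Each gap took more of the control range (0.766, 0.773 and 0.746) than Dixon's critical value of 0.710. Chance flags about 1 in 20 such groups if values follow a normal distribution, which was not tested. The gaps were taken on linear CPM, and Cfd ran from 5.50 to 1740 CPM in the controls. Log2 CPM were not examined in this way, and the flags may differ there. The same library had the highest adipocyte list, 3.18 log2 units above the control mean, and the highest interferon response list, 1.03 above it. The part of either in these values was not tested.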

How the results depend on the processing

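The number of genes past the threshold was 180. It was 1610 with DESeq2, 1948 with limma-voom and sample quality weights and 461 with the adipocyte covariate, and 4 to 1222 when 1 library was left out, highest without SDS library 3, lowest without SDS library 2 or control library 1, and more than 1.5 times below 180 also without SDS library 1 and control libraries 2, 3 and 5. The count of members, 0, was 4 with quality weights and 0 to 4 when 1 library was left out. The count for the pathway list, 0, was 5 with DESeq2, 13 with quality weights and 0 to 11 when 1 library was left out. The scalings by relative log expression, by upper quartile and by TMM leaving out the muscle list with the 50 top genes, both other filters and limma-voom gave 0 for members and list.

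Over 19 alternatives the log2 fold changes of C1ra, C1s1, C3, C4b, Cfb, C3ar1 and C5ar1 stayed positive, and their smallest and largest values were 0.21 (C1s1) and 2.63 (Cfb). C2 changed sign in 4, to 0.36 with quality weights, 0.44 with the replicate number as a block, 0.37 on the same 6 libraries with no replicate block, a fit added after the data were seen, and -0.86 to 0.27 over the libraries left out. Control library 4, where C2 measured 20.8 CPM, was absent from the positive fits, except that quality weights kept it at a weight of 0.457. Only SDS library 3 had a lower weight. The cause was not tested.

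Whether replicate numbers pair the samples could not be decided. Deviations of same-numbered libraries correlated at 0.311, -0.006 and 0.307, and those of differently numbered libraries were not computed for comparison. With the replicate block in edgeR, 0 genes passed (0 also among members and list), and 2 did on the same libraries without it.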

Other observations

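Some complement genes of liver type, among them C8a, C9 and Mbl2, had their highest counts in SDS library 3 and control library 1. These are the 2 libraries with the highest hepatocyte list. Masp2 did not follow, with 10 counts in control library 4, 7 in control library 1 and 4 in SDS library 3. C4bp had 9 counts in control library 1 but 3 in control library 5 and 2 in SDS library 3. C8a had 0, 0 and 8 counts in SDS libraries 1, 2 and 3 and 12, 1, 1, 0 and 1 in control libraries 1 to 5. C9 had 0, 2 and 5 counts with SDS, against 10, 2, 0, 1 and 1 in the controls. Mbl2 had 0, 1 and 4 counts with SDS, against 6 in control library 1 and 0 in the other controls. Alb measured 0.393, 3.23 and 33.0 CPM with SDS and 19.8, 2.21, 0.554, 0.406 and 2.71 CPM in the controls. These genes were chosen after their values were seen, and the source of the reads was not tested.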
